A study of Mus musculus with 11 samples.

Results

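The mitochondrial protein import machinery was followed at the RNA level in lumbar spinal cord from C57BL/6 mice aged 10 months. Its members were taken by name from the deposited expression table: every row whose symbol starts with Timm or Tomm, together with Pam16, Dnajc15, Dnajc19, Grpel1, Grpel2, Samm50, Mtx1, Mtx2, Mtx3, Chchd4, Gfer, Pmpca, Pmpcb, Immp1l and Immp2l. This gave 41 of 20888 rows, and 39 of the 41 were abundant enough to be tested. The study compared 3 nontransgenic mice (nTg), 3 mice with the mutant mitofusin MFN2-R94Q and 5 mice with both MFN2-R94Q and MFN1, each library coming from 1 mouse as the design text counts them. MFN2 and MFN1 are the mitofusins, GTPases of the mitochondrial outer membrane that fuse mitochondria, and MFN2 mutations cause the axonal neuropathy Charcot-Marie-Tooth disease type 2A, which the series title names. The promoters that drive the transgenes, the founder lines, and the sex and litters of the mice are not given in the sources used.

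Nearly all mitochondrial proteins are encoded in the nucleus, made in the cytosol and imported. Precursors are recognised by receptors of the TOM complex, pass its channel, and are then sorted to the matrix and inner membrane by TIM23, to the inner membrane by TIM22 with the small TIM chaperones, or to the outer membrane by the SAM complex. In the matrix a motor built around mitochondrial Hsp70 pulls precursors in and peptidases remove their targeting signals. Neurons with long axons depend on this supply along the axon.

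The members' promoters are shown first for 5 genes that changed in MFN2-R94Q spinal cord, because the share of import gene promoters with these motifs is compared next with that of other genes. Each stretch lies upstream of the RefSeq transcript start (GRCm38.p6), is written 5′ to 3′ on the strand of the gene, and has its motif in capitals. In Tomm20 the capitals mark the motif of NRF1, a transcription factor of nuclear genes for mitochondrial proteins. This motif reads GCGCA, any 1 base and GCGC, and Tomm20 holds its reverse complement, GCGC, any 1 base and TGCGC. In the other 4 the capitals mark CCGGAAG or its reverse complement CTTCCGG, the core motif of GABPA and other ETS factors.
Tomm20 (chr8:126945922-126945971, minus strand): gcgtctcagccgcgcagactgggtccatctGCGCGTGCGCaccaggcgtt
Tomm70a (chr16:57121604-57121702, plus strand): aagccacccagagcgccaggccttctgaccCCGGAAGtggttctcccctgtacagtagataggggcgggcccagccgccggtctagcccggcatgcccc
Timmdc1 (chr16:38522664-38522837, minus strand): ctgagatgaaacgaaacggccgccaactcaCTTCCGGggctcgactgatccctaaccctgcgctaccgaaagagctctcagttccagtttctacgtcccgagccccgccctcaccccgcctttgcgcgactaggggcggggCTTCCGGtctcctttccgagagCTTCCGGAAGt
Tomm34 (chr2:164071172-164071238, minus strand): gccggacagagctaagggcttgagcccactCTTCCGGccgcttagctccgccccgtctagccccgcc
Timm8b (chr9:50603859-50603900, plus strand): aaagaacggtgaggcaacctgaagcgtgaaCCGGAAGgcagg

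Promoter windows of 250 bases were given for 37 of the 41 members; Grpel2, Timm21, Tomm40l and Tomm7 had none. On both strands, CCGGAAG occurred in 14 of the 37 (37.8%), against 7.83% of all 27025 genes with a window and 14.3% of the 10887 tested ones. In Timmdc1 it occurred 4 times, and the last 2 matches overlap on opposite strands. The motif was found with both directions of change, in Tomm70a, which rose, and in Tomm34, Timm8b, Timmdc1 and Pmpcb, which fell. Of the members past the threshold in any comparison, 5 of the 10 with a window held it, and of the tested members that did not pass, 8 of 25 did. The NRF1 motif occurred in 3 of the 37 (8.11%; Tomm20, Pam16 and Chchd4), against 4.23% of all genes and 8.74% of the tested genes with a window. These matches describe letters and not binding.

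Values are deposited RPKM, which scale reads by gene length and library size. The depth that could be read from the steps of the lowest values was 30.8 M to 72.1 M reads per library, and the ranges of the groups overlapped. MFN2-R94Q replicate 2 stood apart from all other libraries on the first principal component, at 27.0 against a range from -8.23 to 8.05. Neuron and astrocyte markers were present in every library, and the skeletal muscle markers were at a mean of less than 1 RPKM. The Schwann cell marker Prx was at 1.147 RPKM in MFN2-R94Q:MFN1 replicate 3 and at 0.1662 RPKM or less in the other 10 libraries. Of 4 sensory ganglion markers, Scn10a, Trpv1 and Mrgprd each averaged less than 1 RPKM, whereas Tac1 averaged 14.08 RPKM.

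In nTg spinal cord the tested import genes had a median level of 18.7 RPKM, against 7.40 RPKM for all 14347 tested genes. The highest was Timm8b, a small TIM chaperone of the intermembrane space, at 92.75 ± 4.7 RPKM (SD, n = 3), followed by the receptor gene Tomm20 at 59.5 ± 0.98 and the channel gene Timm23 at 49.6 ± 1.0. The lowest coding member tested was Immp2l, a subunit of the inner membrane peptidase, at 1.595 ± 0.13 RPKM. Tomm20l and Timm8a2, relatives of Tomm20 and Timm8a1, did not reach the minimum of 0.5 RPKM in any library, at no more than 0.1375 and 0.07565 RPKM.

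MFN2-R94Q against nTg asked what the mutant mitofusin changed. Of the 39 import genes tested, 2 rose and 10 fell (limma, Benjamini-Hochberg adjusted p below 0.05 over all genes). The 12 make up 30.8% of the import genes, where 17.9% of all tested genes passed, 7.50% higher and 10.4% lower. Both rises were import receptors of the outer membrane, Tomm20 and Tomm70a. The falls included the channel gene Tomm40, its relative Tomm40l and the small subunits Tomm5 and Tomm7 of the same complex. Changes were small: the fitted log2 differences of the 39 ran from -0.39 to 0.25, with a median of -0.09 against -0.0024 over all genes. The groups did not overlap for 21 of the 39, against 35.7% of all tested genes. Of these, 4 were higher and 17 lower, where the shares over all genes were 16.6% and 19.1%. The other 10 genes called, besides Tomm20 and Tomm40l whose positions follow, lie on chromosome 16 (Tomm70a at 57121703 to 57156705 and Timmdc1 at 38498347 to 38522663), 7 (Tomm40, 19701313 to 19715438), 4 (Tomm5, 45105208 to 45108114), 5 (Tomm7 at 23838944 to 23844161 and Pmpcb at 21737141 to 21757152), 2 (Tomm34, 164053540 to 164071169), X (Timm17b, 7899357 to 7908351), 14 (Dnajc15, 77820681 to 77875125) and 9 (Timm8b, 50603910 to 50605320). Exons of Tomm40, Tomm70a, Timm8b and Timm17b overlap those of Gm20512, Nit2, Nkapd1 and Gm10491 on the other strand, so their values may include reads of these neighbours. In bulk RNA, fewer cells of a type and less RNA per cell cannot be told apart.

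**Figure D1:**
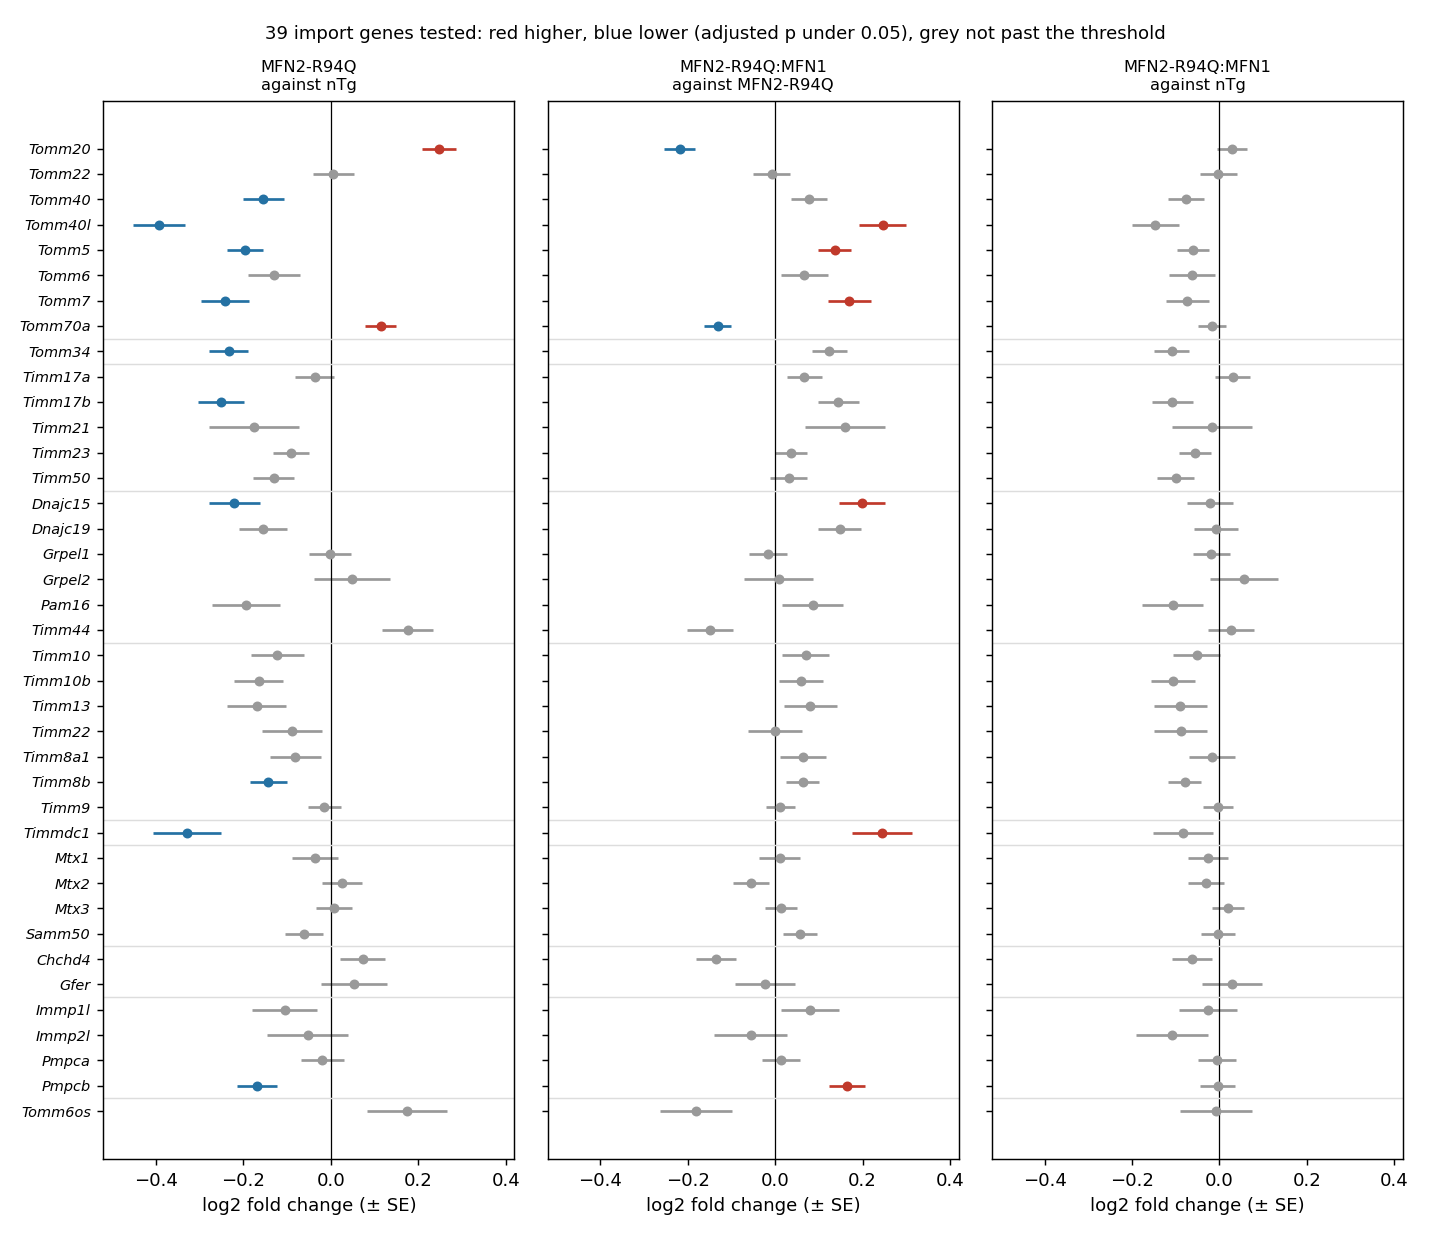
Log2 fold change (horizontal axis, with its SE) of the 39 tested import genes, grouped from top to bottom as TOM, Tomm34, TIM23, motor, TIM22 and small TIM, Timmdc1, SAM, intermembrane space oxidation, peptidases and Tomm6os, in the 3 comparisons. Red and blue points passed the threshold higher or lower and grey points did not; 12 genes are coloured in the left panel, 8 in the middle panel and 0 in the right panel.

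Tomm20, the receptor for precursors with an N-terminal signal, is on chromosome 8 (126930667 to 126945844, GRCm38). It was at 60.2, 59.9 and 58.4 RPKM in the nTg libraries, 70.9, 74.0 and 67.6 in MFN2-R94Q, and 60.95, 62.0, 61.8, 58.0 and 61.1 in MFN2-R94Q:MFN1. All 3 MFN2-R94Q libraries lay above all 8 others, which overlapped among themselves. The rise over nTg was 1.19-fold (log2 0.25, SE 0.039, adjusted p = 0.0031). Tomm70a, the receptor for carrier precursors, which docks the cytosolic chaperones that bring them, was at 39.1, 39.1 and 37.25 RPKM in nTg. Its MFN2-R94Q libraries were at 43.2, 41.7 and 40.2 RPKM and its MFN2-R94Q:MFN1 libraries at 38.2, 37.55, 38.7, 38.0 and 37.6. These MFN2-R94Q libraries were again the 3 highest, by a narrower margin (1.08-fold, log2 0.11, SE 0.035, adjusted p = 0.041). The rise of Tomm70a lost its call in 15 of 22 alternative settings, among them removal of the trend with transcript length and GC (log2 0.07, adjusted p = 0.13). It did not pass without any 1 of 10 libraries, each left out in turn, with log2 values of 0.09 to 0.13 and adjusted p of 0.0502 to 0.139. MFN2-R94Q replicate 3 was the exception. Tomm22, the central receptor that joins the complex, was at 43.4 ± 0.35 RPKM in nTg and 43.5 ± 1.0 in MFN2-R94Q and did not pass (adjusted p = 0.95).

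Tomm40 forms the pore through which precursors cross the outer membrane. It was at 29.9, 31.5 and 29.4 RPKM in nTg, 25.7, 28.9 and 27.0 in MFN2-R94Q, and 28.0, 29.9, 28.0, 28.2 and 29.2 in MFN2-R94Q:MFN1. It fell to 0.899 of the nTg level (log2 -0.15, SE 0.046, adjusted p = 0.036), and lost its call in 8 of the 22 settings. Leaving out nTg replicate 1, nTg replicate 2, MFN2-R94Q replicate 1 or MFN2-R94Q replicate 3 ended its call, at adjusted p of 0.072 to 0.14. Tomm40l (chromosome 1, 171216011 to 171222514), a paralogue of the pore gene, showed the largest fall of all members. Its libraries were at 15.3, 15.1 and 14.1 RPKM in nTg, 11.7, 10.3 and 11.6 in MFN2-R94Q, and 13.6, 13.9, 12.9, 12.4 and 14.1 in MFN2-R94Q:MFN1. The nTg libraries were highest and the MFN2-R94Q libraries lowest, and the lowest nTg value, 14.14, only just exceeded the highest with both transgenes, 14.08. The fall in MFN2-R94Q was to 0.762 of the nTg level (log2 -0.39, SE 0.059, adjusted p = 0.0030). The exons of Tomm40l overlap those of Nr1i3 on the other strand, and the sources do not say whether counting used the strand.

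Tomm5, Tomm6 and Tomm7 encode the small subunits that stabilise or loosen the complex around the pore. Tomm5 was at 36.2, 35.2 and 33.2 RPKM in nTg, 30.9, 29.6 and 30.6 in MFN2-R94Q, and 32.9, 34.7, 33.5, 31.8 and 34.3 in MFN2-R94Q:MFN1. Every MFN2-R94Q value was below every other value, and the fall was to 0.8725 of nTg (log2 -0.20, SE 0.042, adjusted p = 0.0089). Tomm7, also known for holding PINK1 at the outer membrane, was at 33.2, 31.7 and 31.9 RPKM in nTg, 26.6, 26.2 and 28.8 in MFN2-R94Q, and 32.4, 32.2, 29.3, 28.2 and 31.4 in MFN2-R94Q:MFN1. Its fall was to 0.845 of nTg (log2 -0.24, SE 0.055, adjusted p = 0.011). Tomm6 was at 46.9 ± 0.74 RPKM in nTg and 42.8 ± 1.2 in MFN2-R94Q, without overlap, and did not pass (adjusted p = 0.14). Its antisense neighbour Tomm6os, at 1.075 ± 0.13 and 1.27 ± 0.029 RPKM, did not pass either (adjusted p = 0.20), and reads of this overlapping pair may be divided between them.

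**Figure D2:**
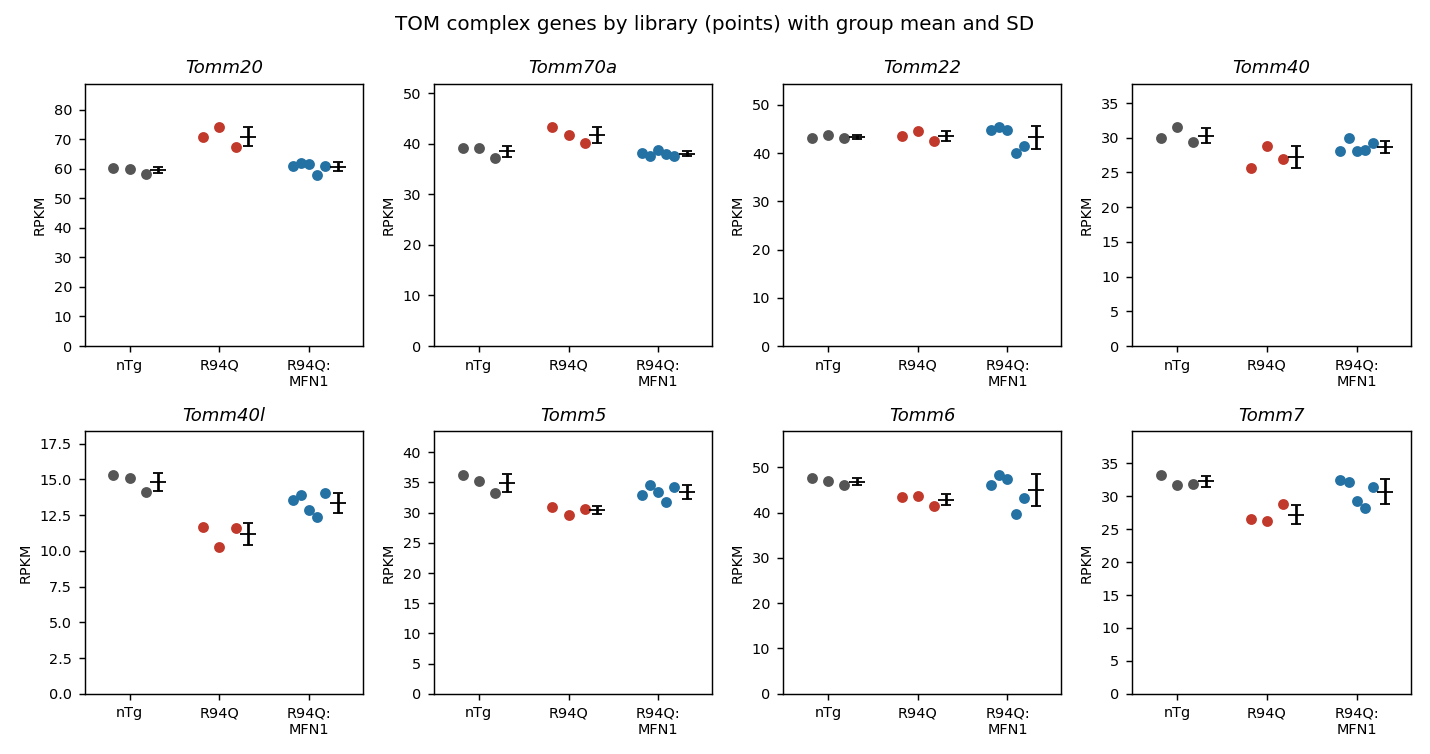
RPKM (vertical axes, from 0) of 8 TOM complex genes in each library: grey points are the 3 nTg, red the 3 MFN2-R94Q and blue the 5 MFN2-R94Q:MFN1 libraries, with the group mean and SD in black. Red points lie above the others for Tomm20 and Tomm70a and below them for Tomm5 and Tomm40l, whereas those of Tomm22 lie among the others.

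The opposite movement within the TOM complex can be read as a ratio inside each library. This ratio was chosen after the values were seen and has no test. For Tomm20 over Tomm40 the mean was 1.97 ± 0.057 in the 3 nTg libraries (SD), 2.61 ± 0.13 in the 3 MFN2-R94Q libraries and 2.12 ± 0.065 in the 5 with both transgenes. Its lowest MFN2-R94Q value, 2.50, was above the highest of the other groups, 2.20. Tomm34, a cytosolic cochaperone that binds Hsp70 and Hsp90 and carries a Tomm name although it is not part of the complex, fell to 0.8505 of nTg (log2 -0.23, SE 0.045, adjusted p = 0.0059). It was at 25.6, 27.1 and 24.7 RPKM in nTg, 22.4, 20.6 and 22.7 in MFN2-R94Q, and 24.5, 23.8, 23.2, 23.6 and 24.3 in MFN2-R94Q:MFN1, so no groups overlapped.

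Among the TIM23 genes 1 of 5 passed (20%, against 17.9% of all tested genes). Timm17b, encoding a channel subunit from the X chromosome, was at 7.65, 8.003 and 7.66 RPKM in nTg, 6.16, 6.49 and 6.69 in MFN2-R94Q, and 7.27, 7.79, 6.99, 6.98 and 6.87 in MFN2-R94Q:MFN1. All MFN2-R94Q libraries were below all others, and the fall was to 0.840 of nTg (log2 -0.25, SE 0.053, adjusted p = 0.0084). Timm17a, its autosomal counterpart, was at 41.75 ± 2.3 and 40.7 ± 1.5 RPKM and did not pass. Timm23 (channel), Timm50 (receptor) and Timm21 (link to the TOM complex) did not pass, at fitted log2 differences of -0.09, -0.13 and -0.18.

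Of 6 motor genes 1 passed (16.7%, against 17.9% of all tested genes), Dnajc15, which encodes a J-domain protein of the inner membrane. It was at 38.3, 37.7 and 35.35 RPKM in nTg, 34.6, 28.45 and 32.6 in MFN2-R94Q, and 37.1, 37.7, 36.3, 35.2 and 36.5 in MFN2-R94Q:MFN1. MFN2-R94Q replicate 2 held the lowest value. The fall was to 0.858 of nTg (log2 -0.22, SE 0.059, adjusted p = 0.023), and without that library it was log2 -0.14 and did not pass (adjusted p = 0.052). It did not pass either without nTg replicate 1 or replicate 2 (adjusted p = 0.077 each). Timm44, which tethers mitochondrial Hsp70 to the channel, had higher values in all 3 MFN2-R94Q libraries, at 20.1, 22.9 and 20.1 RPKM against 18.6, 17.2 and 19.85 in nTg, and narrowly missed the threshold (log2 0.18, SE 0.058, adjusted p = 0.055). It passed under 5 of the 22 settings, quantile normalization among them (log2 0.21, adjusted p = 0.031). Pam16 and Dnajc19 (adjusted p = 0.10 and 0.067) and the nucleotide exchange factors Grpel1 and Grpel2 (0.98 and 0.73) did not pass.

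All 7 tested genes of TIM22 and the small TIM chaperones had a negative fitted log2 difference between MFN2-R94Q and nTg, as 50.73% of all tested genes had. Of these 1, Timm8b, passed (14.3%, against 17.9% of all tested genes). Timm8b was at 98.0, 89.0 and 91.3 RPKM in nTg, 86.0, 81.3 and 84.45 in MFN2-R94Q, and 83.9, 89.2, 86.2, 91.3 and 87.9 in MFN2-R94Q:MFN1. Its fall to 0.906 of nTg (log2 -0.14, SE 0.042, adjusted p = 0.035) lost its call in 9 of the 22 settings, and was log2 -0.08 under quantile normalization (adjusted p = 0.18). Leaving out nTg replicate 1, nTg replicate 3, MFN2-R94Q replicate 2 or MFN2-R94Q replicate 3 ended its call, at adjusted p of 0.058 to 0.13. Timm10b and Timm13 did not overlap between the groups but missed the threshold (adjusted p = 0.058 and 0.099). Timm22, Timm8a1, Timm9 and Timm10 overlapped between the groups, at log2 differences of -0.09, -0.08, -0.01 and -0.12.

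Timmdc1, an assembly factor of respiratory complex I that the name rule also took, had the second largest fall. It was at 8.23, 8.35 and 7.87 RPKM in nTg, 6.32, 5.62 and 7.33 in MFN2-R94Q, and 7.67, 8.14, 7.44, 7.09 and 8.003 in MFN2-R94Q:MFN1. The MFN2-R94Q libraries were spread more widely than those of the other groups, and their mean was 0.796 of nTg on the fitted scale (log2 -0.33, SE 0.077, adjusted p = 0.013). Without nTg replicate 2 it missed the threshold (adjusted p = 0.051), as it did in a fit of these groups alone. With library weights it passed with a smaller fall, at log2 -0.17. Pmpcb, the catalytic subunit of the matrix processing peptidase, was at 28.2, 27.1 and 27.3 RPKM in nTg, 24.8, 23.0 and 25.5 in MFN2-R94Q, and 28.0, 28.35, 27.4, 27.6 and 25.8 in MFN2-R94Q:MFN1. All MFN2-R94Q values were below all others, at 0.889 of nTg (log2 -0.17, SE 0.045, adjusted p = 0.0235). It did not pass without any 1 of the nTg libraries or without MFN2-R94Q replicate 2, at adjusted p of 0.051 to 0.079. Its partner Pmpca, at 23.4 ± 1.5 and 23.1 ± 1.3 RPKM, and the inner membrane peptidase genes Immp1l and Immp2l did not pass.

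**Figure D3:**
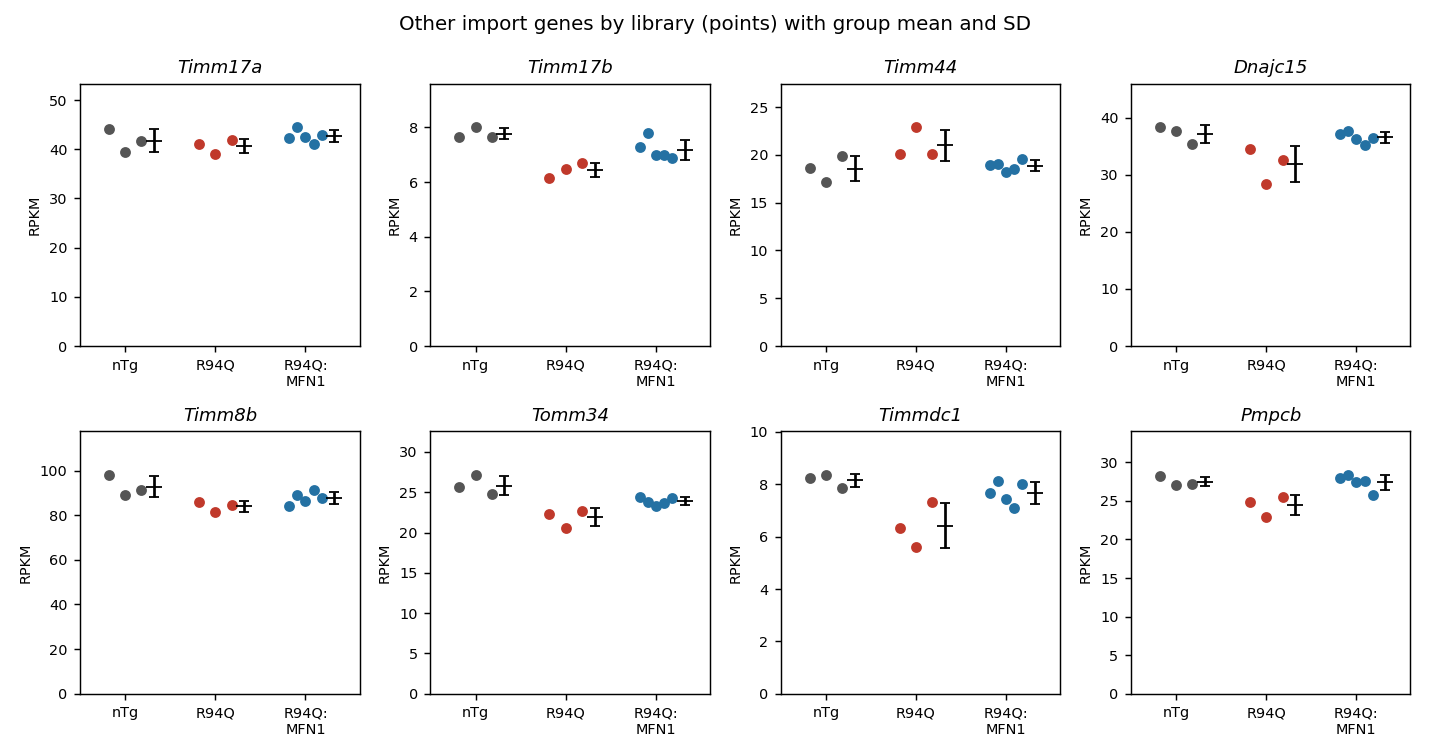
RPKM (vertical axes, from 0) of 8 further import genes in each library, with grey for nTg, red for MFN2-R94Q, blue for MFN2-R94Q:MFN1, and the group mean and SD in black. The red points of Timm17b, Dnajc15, Tomm34 and Pmpcb lie below all others, those of Timm44 lie above, and those of Timm17a overlap the other groups.

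No gene of the SAM complex or of the intermembrane space oxidation relay passed in limma, and 0 of their 6 genes had an unadjusted p below 0.05, where 34.4% of all tested genes did. Samm50, which inserts barrel proteins into the outer membrane, was at 37.3 ± 0.62 RPKM in nTg and 35.7 ± 0.15 in MFN2-R94Q (adjusted p = 0.35). Its partners Mtx1, Mtx2 and Mtx3 had fitted log2 differences of -0.04, 0.02 and 0.01. Chchd4, which oxidises incoming cysteine proteins, and Gfer, which reoxidises Chchd4, had values of 0.07 and 0.05 on that scale.

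Other genes that work with import were counted from lists outside the name rule. Over all tested genes, 10.4% fell and 7.50% rose. Of 14 import partners 4 fell and 1 rose. The gene that rose was Hspa9, encoding the mitochondrial Hsp70 itself, at 82.5 ± 4.8 RPKM against 74.4 ± 2.4 (log2 0.15, adjusted p = 0.027). The falls were in Dnlz, whose product keeps Hspa9 soluble (log2 -0.31, adjusted p = 0.0031), Agk, a TIM22 subunit (-0.21), Mipep, a matrix peptidase (-0.17), and Hspe1, the matrix cochaperonin (-0.26). The rise of Hspa9 was not called, and the list had 3 falls, without nTg replicate 2, nTg replicate 3 or MFN2-R94Q replicate 2, and in a fit of these groups alone. Of 11 CX9C proteins, small cysteine proteins oxidised by Chchd4, 6 fell: Cox17, Cox6b1, Chchd2, Chchd10, Ndufb7 and Uqcrh. Their log2 differences ran from -0.16 to -0.27. Of 7 MICOS genes, which shape the cristae of the inner membrane, 3 fell, namely Chchd3 (log2 -0.31), Chchd6 (-0.17) and 2410015M20Rik (-0.23). The count of 3 was 1 without any single nTg library or MFN2-R94Q replicate 1, without the filter on low values, and in a fit of these groups alone. The medians of the 3 lists were -0.11, -0.19 and -0.17.

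Markers of cell types moved in the same comparison. Over all tested genes 10.4% were lower and 7.50% higher. The summed motor neuron markers were at 52.3 to 54.3 RPKM in nTg and 45.8 to 50.35 in MFN2-R94Q, with 3 of 5 lower. The 3 were Chat, Slc18a3 and Mnx1, the last at low means of 1.11 RPKM in nTg and 0.787 in MFN2-R94Q. Slc5a7 (16.7 and 16.5 RPKM) and Isl1 did not pass. Endothelial markers went from 30.4 to 37.6 down to 21.3 to 29.0, with 2 of 3 lower, of 4 astrocyte and 5 microglial markers 1 each was lower, and of 4 neuron markers 1 was higher and 1 lower. Their part in the import gene differences was not tested. The median length of the longest transcript was 2503 bases for the import genes, 2342 for the 10 that fell and 5433 for the 2 that rose, against 3386 for all tested genes. Removing the trends with length and GC content brought the median of the 39 from -0.09 to -0.06 and gave 2 higher and 11 lower. These were not all the same genes, because Tomm70a and Timm8b lost their calls in this setting. Left out in turn, nTg replicate 1 or replicate 2 brought the count of 12 to 7, and MFN2-R94Q replicate 2 brought it to 9, with 1 higher and 8 lower. Quantile normalization gave 3 higher and 8 lower.

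**Figure D4:**
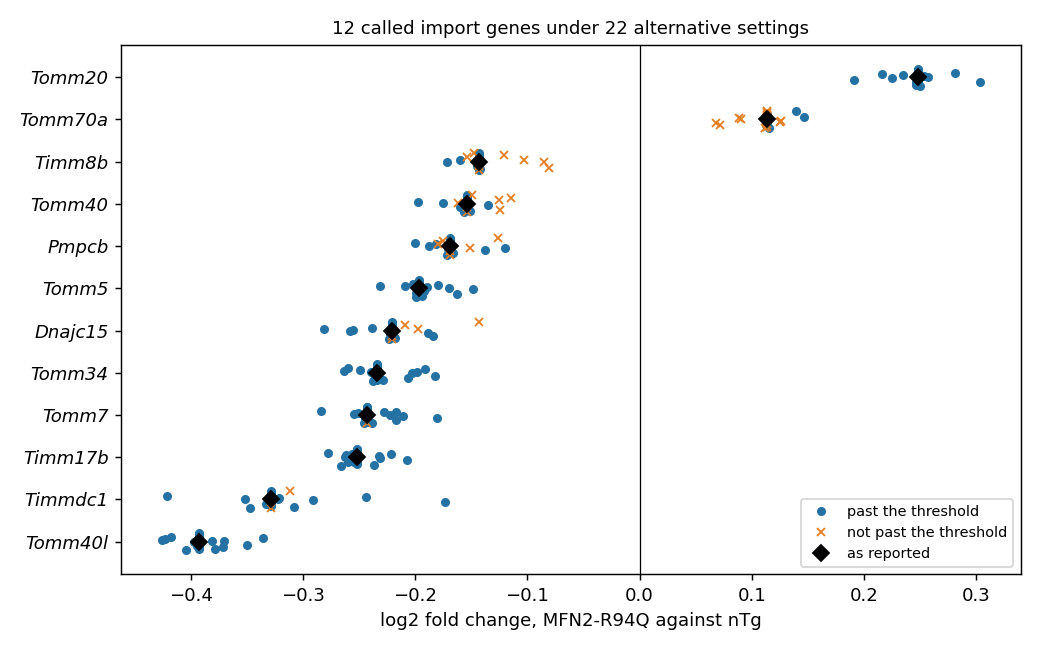
Log2 fold change in MFN2-R94Q against nTg (horizontal axis) of the 12 import genes past the threshold, as reported (black diamonds) and under 22 alternative settings (blue circles past the threshold, orange crosses not). The points of every gene stay on 1 side of 0, and Tomm20, Tomm40l, Tomm5, Timm17b and Tomm34 have no crosses.

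MFN2-R94Q:MFN1 against MFN2-R94Q asked what MFN1 changed on the mutant background. Of the 39 import genes 6 were higher and 2 lower with MFN1, or 20.5%, where 12.9% of all tested genes passed, 9.55% higher and 3.33% lower. This comparison uses the same MFN2-R94Q libraries as the one before, so opposite directions in the pair are not independent, and the values of both are given side by side. Tomm20 and Tomm70a were the members lower with MFN1. Tomm20 was at 0.859 of the MFN2-R94Q level (log2 -0.22, SE 0.034, adjusted p = 0.0030), and Tomm70a at 0.913 (log2 -0.13, SE 0.031, adjusted p = 0.019). For both genes the highest MFN2-R94Q:MFN1 library lay below the lowest MFN2-R94Q library. Over the 39, the groups did not overlap for 10, 7 higher and 3 lower, against 20.1%, 13.1% and 7.05% of all tested genes.

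The members higher with MFN1 were Tomm40l, Tomm5, Tomm7, Dnajc15, Timmdc1 and Pmpcb. Tomm40l rose 1.19-fold (log2 0.25, SE 0.053, adjusted p = 0.012) and remained past the threshold in 21 of 22 settings, the exception being a threshold of 0.01. Tomm5 rose 1.10-fold (adjusted p = 0.032), Tomm7 1.125-fold (0.040), Dnajc15 1.148-fold (0.028), Timmdc1 1.185-fold (0.036) and Pmpcb 1.12-fold (0.021). Without MFN2-R94Q replicate 2, Tomm5, Tomm7, Dnajc15, Timmdc1 and Pmpcb did not pass, with log2 differences of 0.12, 0.14, 0.12, 0.16 and 0.12 and adjusted p of 0.080 to 0.15. Without MFN2-R94Q:MFN1 replicate 2 these 5 genes did not pass either, at adjusted p of 0.051 to 0.089. Other single libraries also ended calls: replicate 1 or 5 with MFN1 for Tomm7, Dnajc15 and Timmdc1, replicate 5 for Tomm5, replicate 3 for Tomm5 and Timmdc1, MFN2-R94Q replicate 1 for Tomm7 and Timmdc1, MFN2-R94Q replicate 3 for Tomm5, and each nTg library for Tomm7. In all of these the adjusted p was between 0.051 and 0.085, and the log2 difference between 0.13 and 0.25. Tomm40, Tomm34, Timm17b and Timm8b, lower in MFN2-R94Q than in nTg, did not pass here, at log2 differences of 0.08, 0.12, 0.14 and 0.06. For Timm17b (adjusted p = 0.060) and Tomm34 (adjusted p = 0.059) every library with MFN1 was still above every MFN2-R94Q library. Timm44 was lower with MFN1 by 0.15 on the log2 scale and did not pass (adjusted p = 0.077).

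Among the associated lists, 1 of 14 import partners (Dnlz, log2 0.22), 4 of 11 CX9C genes (Cox6b1, Chchd10, Ndufb7 and Uqcrh) and 3 of 7 MICOS genes (Chchd3, Chchd6 and Apool) were higher. Over all tested genes the share higher was 9.55%. Chchd3 rose from 26.95 ± 2.1 to 32.45 ± 0.58 RPKM (adjusted p = 0.0040). Without MFN2-R94Q replicate 2, 1 import gene was higher and 2 lower, and the CX9C list had 1 higher. The CX9C count of 4 was also 1 without MFN2-R94Q:MFN1 replicate 5, without the filter or with quantile normalization. It was 2 without MFN2-R94Q replicate 1 or MFN2-R94Q:MFN1 replicate 2, with median centring, with the length and GC trends removed, and in a fit of these groups alone. The MICOS count of 3 was 1 without MFN2-R94Q replicate 1, without MFN2-R94Q:MFN1 replicate 5 or without the filter. Without MFN2-R94Q:MFN1 replicate 2 the import count was 3, and without replicate 5 it was 4. Without replicate 3, the library with the higher Prx value, 4 import genes were higher and 2 lower. Quantile normalization and median centring each gave 6 higher and 4 lower, and removing the length and GC trends gave 3 higher and 4 lower, with the median of the 39 moving from 0.06 to -0.01. Microglial markers, at 79.99 to 89.0 RPKM in sum in MFN2-R94Q and 110.8 to 129.6 with MFN1, rose in 5 of 5 cases. Of 4 astrocyte markers 2 were higher with MFN1, of 3 endothelial markers 1 was higher, and of 4 neuron markers 1 was lower. Of 5 motor neuron markers 0 passed. The part of these markers in the import gene differences was not tested.

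MFN2-R94Q:MFN1 against nTg asked how far the mice with both transgenes differed from nontransgenic mice, and it shares libraries with both other comparisons. No import gene passed in limma, where 2.31% of all tested genes did, 2.09% higher and 0.223% lower. At an unadjusted p below 0.05 there were 4 of 39 members, all with lower values, where 15.5% of all tested genes reached this level. No other tool was run. The member with the smallest adjusted p was Tomm40l, at 13.4 ± 0.72 RPKM against 14.8 ± 0.62 (log2 -0.15, SE 0.053, adjusted p = 0.205). Tomm20 was at 60.8 ± 1.6 RPKM against 59.5 ± 0.98 (log2 0.03, SE 0.034). The fitted log2 difference was negative for 33 of the 39, against 45.85% of all tested genes. The median of the 39 was -0.03, against 0.0083 over all genes. The groups did not overlap for 2 members, Tomm40l and Tomm34, both lower, against 14.1% of all tested genes, 9.03% higher and 5.05% lower. Of the 32 genes in the associated lists 0 passed in limma, and 5 had an unadjusted p below 0.05, against the same 15.5%.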

How the data were processed

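Messenger RNA of lumbar spinal cord was measured in 11 libraries, with groups taken from the genotype labels. The authors deposited RPKM values for 20888 gene symbols, made with TopHat (version not given) and Partek 7.17.0918 on mouse build mm10, per the submitters' processing notes. No source used names the annotation or counting rule, so values of overlapping or near-identical genes are uncertain. Depth was recovered from short RNA genes, whose values of at most 5 reads lay within 0.02 of a whole number in 60.5% to 73.2% of cases per library. A gene needed 0.5 RPKM or more in 3 or more libraries, which 14347 reached. These were tested with limma 3.58.1 (R 4.3.3, trended eBayes) after a log2(RPKM + 0.5) transform, in a single model of genotype over the 11 libraries. The two-sided p-values were adjusted over all genes by Benjamini-Hochberg, with 0.05 as threshold. Because of the added 0.5 RPKM, fold changes understate those of low genes. The p-values rest on the spread between mice, pooled over the 3 groups. The fit was tested on simulated data.

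Members and lists were chosen with earlier results of these data known. All members are named, and those past the threshold are given by library. Positions are from GENCODE M21 (GRCm38), as are the transcript length and GC content used in a correction by loess with a span of 0.5, which covered 99.1% of the tested genes. Promoters are from RefSeq (GRCm38.p6). Alternatives covered pseudocount, filter, scaling, samples in the fit, library weights, eBayes options, threshold, length and GC content, and each library left out in turn. The values of some cell type markers are not reported here.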

Additional observations from a re-analysis of the deposited data

Results flagged for a closer look

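In the group of 5 MFN2-R94Q:MFN1 libraries, 3 of 39 import genes had a library far from the others by Dixon's test; chance flags about 1 in 20 groups. Gfer was at 6.31 RPKM in replicate 4, and the nearest other library was at 5.91. Grpel2 was at 3.25 RPKM in replicate 1, with the nearest at 3.71. Tomm20 was at 58.0 RPKM in replicate 4, with the nearest at 60.95. That library was also below every nTg library, the lowest of which was at 58.4 RPKM.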

How the results depend on the processing

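In no setting did an import gene that passed the threshold change direction. For MFN2-R94Q against nTg, 12 import genes passed, and 6 did when these groups were fitted alone, 19 with library weights and 5 at an adjusted p of 0.01. With 1 library left out the count ran from 7 to 13. For MFN2-R94Q:MFN1 against MFN2-R94Q, 8 passed, 5 without a filter on low values and 1 at an adjusted p of 0.01, and from 3 to 9 with 1 library left out. For MFN2-R94Q:MFN1 against nTg the count was 0 in every setting. The 3 comparisons had 48, 41 and 0 losses and 21, 12 and 0 gains of a single gene's call among 858 values each. The cause was not tested. No paired analysis was possible because the labels give no replicate number, litter or batch shared between groups. With 3 mice in the smaller groups, the size of difference that passed depended on the spread of each gene. In MFN2-R94Q against nTg, Tomm70a passed at log2 0.11 (SE 0.035), whereas Pam16 did not at log2 -0.19 (SE 0.078). A gene that did not pass may therefore differ by more than some that did.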

Other observations

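Paralogous import genes were also set against each other within each library. Per length, Timm17a was 5.38 ± 0.42 times as abundant as Timm17b in the 3 nTg libraries (SD), 6.32 ± 0.34 times in the 3 MFN2-R94Q libraries and 5.94 ± 0.21 times in the 5 with both transgenes. Tomm40 over Tomm40l was 2.04 ± 0.074, 2.44 ± 0.32 and 2.15 ± 0.085 in the same groups. For Tomm40 and Tomm40l the lowest MFN2-R94Q ratio, 2.20, was above the highest nTg ratio, 2.09. For Timm17a and Timm17b these values were 6.01 and 5.77. Both ratios overlapped between MFN2-R94Q and MFN2-R94Q:MFN1, where the highest values with both transgenes were 2.27 and 6.23. In both pairs the less abundant paralogue had the larger fitted fall in MFN2-R94Q. This was not so for Timm8a1 and the more abundant Timm8b, at log2 differences of -0.08 and -0.14, or for Grpel2 and the more abundant Grpel1, at 0.05 and -0.0023. The pairs were chosen after the values were seen and have no test.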
